A study of Homo sapiens with 4 samples.

Results

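The genes ACP3, AZGP1, MSMB, NPY, TFF3, CRISP3, SPINK1 and SPON2, which encode 8 secreted proteins of the prostate, were followed in the human prostate cancer cell line C4-2. They were taken by symbol from the 60483 gene rows of each count table, and all 8 were found, each once. C4-2 is an established, metastatic derivative of the LNCaP line. RNA was sequenced from 2 control libraries (C4-2-CON) and from 2 libraries labelled enzalutamide-resistant (C4-2-ENZ). Enzalutamide is an antiandrogen given to patients with prostate tumours. The labels say that cells were kept with or without the drug for 1 month and were at passage 20 to 30. They name no dose and no vehicle for the controls. The drug and the resistant state go together in these groups, so their effects cannot be told apart. All libraries share a medium with serum, and the growth protocol also names FGF-2 without saying which cells received it.

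The prostate gland is lined by luminal cells that release proteins and ions into the seminal fluid. Many of these proteins are made in response to androgen, whose action enzalutamide is designed to block. ACP3 is prostatic acid phosphatase, AZGP1 is zinc alpha-2-glycoprotein, and MSMB is beta-microseminoprotein, all abundant in seminal plasma. CRISP3 is a cysteine-rich secretory protein that binds MSMB. TFF3 is a trefoil peptide of mucosal surfaces, SPINK1 a trypsin inhibitor, SPON2 a secreted matrix protein also called mindin, and NPY a secreted neuropeptide.

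Bases before the start of transcription are shown for the 2 genes that rose and for 2 of those that fell, so that the stretches next to genes with opposite changes can be read side by side. They come from the RefSeq promoter table on GRCh38.p14, which held 8 windows for 6 of the 8 genes. Each sequence runs 5′ to 3′ on the strand of its gene and is the longest part of the 250 bases before the start that lies outside exons of the gene in GENCODE 29. Capitals mark a match to 1 of 3 short motifs named after the sequences.
ACP3, chr3:132317157-132317366, plus strand: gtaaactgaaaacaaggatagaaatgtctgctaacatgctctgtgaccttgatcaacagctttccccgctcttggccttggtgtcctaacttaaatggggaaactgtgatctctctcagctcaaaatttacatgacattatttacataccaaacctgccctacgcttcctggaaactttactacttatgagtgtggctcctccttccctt
SPON2, chr4:1173212-1173430, minus strand: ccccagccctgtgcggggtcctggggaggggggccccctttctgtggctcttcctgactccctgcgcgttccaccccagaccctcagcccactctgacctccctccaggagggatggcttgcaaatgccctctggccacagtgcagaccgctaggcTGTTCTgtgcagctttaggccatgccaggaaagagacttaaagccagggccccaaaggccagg
AZGP1, chr7:99976158-99976281, minus strand: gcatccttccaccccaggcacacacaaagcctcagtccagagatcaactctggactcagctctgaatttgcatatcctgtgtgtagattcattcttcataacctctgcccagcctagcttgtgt
CRISP3, chr6:49744438-49744638, minus strand: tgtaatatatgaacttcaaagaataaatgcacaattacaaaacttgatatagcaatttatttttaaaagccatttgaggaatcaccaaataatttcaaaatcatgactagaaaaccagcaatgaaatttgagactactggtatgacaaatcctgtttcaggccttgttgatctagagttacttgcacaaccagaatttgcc
SPON2 has 3 windows in the table, and the one shown has 4 of the 22 GENCODE transcript starts of SPON2 within 100 bases of its start, where the others have 3 and 0. The counts do not tell which start the cells used. The motifs searched on both strands in the full 250 bases were AGAACA (with TGTTCT), a short sequence that steroid hormone receptors contact, TGTTTAC (with GTAAACA), the core bound by forkhead factors, and TATAAA (with TTTATA), the TATA box core. In the windows of ACP3, AZGP1, CRISP3, NPY and SPINK1 these letters were not found. The SPON2 window shown held TGTTCT, 94 to 89 bases before the start, and the farthest SPON2 window held TTTATA. Of all 35116 windows in the table, 12.4% held the first motif, 2.98% the second and 10.7% the third. The windows differed in base composition, with 42% G or C at ACP3, 65.6% at the SPON2 window shown, 52.8% at AZGP1 and 32.4% at CRISP3, against a median of 58% over all windows.

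Gene counts totalled 25589724 and 29866008 in control and 45033885 and 39047453 in resistant libraries, so raw counts are not on the same scale in the 2 groups. Reads not aligned made up 34.16% to 36.95% of HTSeq records in control and 20.32% to 20.66% in resistant libraries, so the groups differed in library makeup. As a check of the cell type, all 10 luminal markers had counts. Their summed level was 2939 and 2943 CPM in control and 4347 and 4361 CPM in resistant libraries. CPM is the usual depth-scaled count, here on TMM-scaled library sizes, which set libraries on a common scale from the bulk of their genes. The lists for other cell types were fibroblast, endothelial, leukocyte, neuroendocrine, basal and club or hillock cells. Fibroblast markers summed to 9.48 and 11.6 CPM in control and to 10.7 and 10.1 CPM in resistant libraries. Endothelial markers summed to 5.5 and 4.775 against 4.31 and 3.67 CPM, and leukocyte markers to 2.35 and 2.46 against 4.73 and 4.78 CPM. COL1A2 and CD3E were at 0 in all 4. Of the 4, 3 and 3 markers tested, ACTA2, COL3A1, KDR and ITGAM were called higher and COL1A1 and VWF lower. KDR had 0 and 1 counts in control and 24 and 13 counts in resistant libraries. Neuroendocrine markers summed to 14.3 and 14.6 CPM in control and to 12.2 and 12.1 CPM in resistant libraries. Basal markers summed to 35.1 and 37 CPM in control and to 91.5 and 96.3 CPM in resistant libraries, with KRT5 at 0 in all 4. DST held most of that sum, with 28.5 and 29.9 CPM in control and 66.1 and 68.7 CPM in resistant libraries. Of the 5 basal markers tested, DST, LAMB3, ITGB4 and TP63 were called higher and KRT15 lower, where 64.7% of all tested genes were called. TP63, the basal transcription factor, had 0 and 1 counts in control and 94 and 89 counts in resistant libraries, and KRT15, a keratin, had 11 and 10 against 0 and 4 counts. The part of these markers in the results was not tested.

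In resistant cells 2 of the secretory genes rose, 4 fell, 1 was not called and 1 was listed at 0 in every library. ACP3 and SPON2 were higher, by 4-fold and 1.93-fold. AZGP1, MSMB, CRISP3 and TFF3 were lower, by 5.83-fold, 5.56-fold, 2.93-fold and 1.74-fold. Calls come from edgeR's quasi-likelihood test over 20325 genes, at a Benjamini-Hochberg threshold of 0.05. Of the 7 genes that passed the filter on low counts, 6 were called, where 64.7% of all tested genes were called. Of all tested genes 33% were called higher and 31.7% lower. The groups did not overlap in CPM for the same 6 genes, as for 81.3% of all tested genes. A call with a change of at least 2-fold was made for 4 of the 7, ACP3, AZGP1, MSMB and CRISP3, against 17.7% of all tested genes. In RNA from whole cultures, fewer cells of a type and less RNA per cell cannot be told apart.

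**Figure D1:**
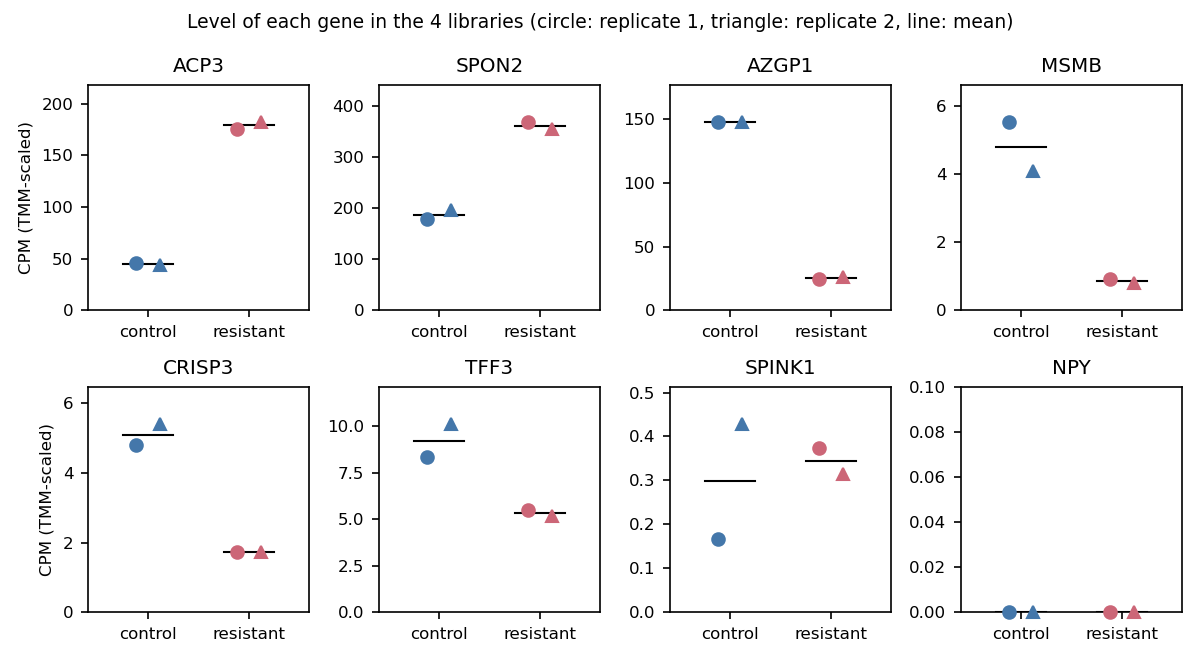
Level in CPM (vertical axis, a separate scale from 0 for each gene) in the control and resistant libraries, with a circle for replicate 1, a triangle for replicate 2 and a line at the mean. Both resistant libraries lie above both control libraries for ACP3 and SPON2 and below them for AZGP1, MSMB, CRISP3 and TFF3, while the groups overlap for SPINK1 and all values of NPY are 0.

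ACP3 encodes the acid phosphatase that was the first serum marker of prostate cancer. It lies on chromosome 3 at 132317367 to 132368298 (GRCh38, positions from GENCODE 29), where no other gene row of the count tables with a position overlaps it. ACP3 had 46.1 and 43.4 CPM in control replicates 1 and 2, and 176 and 182 CPM in resistant replicates 1 and 2. The lowest resistant value was well above the highest control value, and replicates of a group lay close together. The mean rose from 44.8 ± 1.96 to 179 ± 4.58 CPM (SD, n = 2; log2 fold change 2.00 ± 0.048, SE; edgeR adjusted p = 3.07e-11). Of all tested genes, 3.31% had a larger change in either direction. Under the settings tried, the log2 fold change of ACP3 stayed between 1.95 and 2.19.

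SPON2 encodes mindin, which binds microbes and integrins in innate immunity. It lies on chromosome 4 at 1166932 to 1208962, on the minus strand. SPON2 had 179 and 196 CPM in control and 369 and 355 CPM in resistant libraries. Its groups did not overlap. The mean rose from 188 ± 12 to 362 ± 10.3 CPM (SD, n = 2; log2 fold change 0.95 ± 0.047, SE; edgeR adjusted p = 7e-09). With a correction for gene length and GC content SPON2 stayed called at a smaller log2 fold change, 0.47. An antisense gene, ENSG00000273179, lies inside SPON2 at 1167778 to 1168174. It had 170 and 203 raw counts in control and 293 and 272 in resistant libraries, against 4272 to 17809 counts for SPON2. The resistant libraries were deeper, with TMM-scaled sizes of 48218669 and 41450213 against 23838289 and 28061289 in control. The raw antisense counts therefore do not show a rise. No source used here gives the strand setting of the counting, so reads of the pair cannot be told apart in the stretch they share.

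AZGP1 encodes a soluble protein with the fold of MHC class I molecules that promotes fat breakdown. It lies on chromosome 7 at 99966720 to 99976157. AZGP1 had 148 CPM in both control libraries, and 24.9 and 25.9 CPM in the resistant libraries. It was the most abundant of the 8 per exonic length in control cells. The mean fell from 148 ± 0.171 to 25.4 ± 0.705 CPM (SD, n = 2; log2 fold change -2.54 ± 0.046, SE; edgeR adjusted p = 5.55e-12). Of all tested genes, 1.64% changed more. A transcribed pseudogene copy, AZGP1P1, lies beside it on the opposite strand at 99980762 to 99987535 and was looked at after its values were seen. AZGP1P1 had 9.36 and 9.19 CPM in control and 0.394 and 0.579 CPM in resistant libraries (log2 fold change -4.26 ± 0.17, SE; edgeR adjusted p = 1.22e-09). Reads that fit both copies may be missing from or split between their counts.

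MSMB and CRISP3, whose proteins bind each other in seminal plasma, were both lower in resistant libraries and both low in CPM. MSMB has only 492 exonic bases, and per exonic length it stood at 11.3 and 8.33 CPM per kb in control, against 2.13 and 2.40 for CRISP3. MSMB lies on chromosome 10 at 46033307 to 46046269 and had 5.54 and 4.10 CPM in control and 0.913 and 0.796 CPM in resistant libraries. These values rest on 132 and 115 counts in control and on 44 and 33 counts in resistant libraries. The means of MSMB were 4.82 ± 1.02 and 0.854 ± 0.0823 CPM (SD, n = 2; edgeR log2 fold change -2.47 ± 0.2, SE; adjusted p = 4.92e-07). The control libraries differed from each other more than the resistant ones did, and still did not overlap with them. CRISP3 lies on chromosome 6 at 49727384 to 49744437 and had 4.78 and 5.38 CPM in control and 1.74 CPM in both resistant libraries. Its mean fell from 5.08 ± 0.423 to 1.74 ± 0.00356 CPM (SD, n = 2; log2 fold change -1.55 ± 0.143, SE; edgeR adjusted p = 1.63e-06). With the length and GC correction the log2 fold changes were -1.89 for MSMB and -1.05 for CRISP3, and both stayed called.

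TFF3, on chromosome 21 at 42311667 to 42315651, belongs to the trefoil peptides that mucus-secreting cells release. TFF3 had 8.35 and 10.1 CPM in control and 5.47 and 5.16 CPM in resistant libraries. The groups did not overlap, but the gap between them in CPM was the narrowest of the 4 genes that fell. The mean went from 9.22 ± 1.23 to 5.32 ± 0.221 CPM (SD, n = 2; log2 fold change -0.80 ± 0.108, SE; edgeR adjusted p = 4.62e-05). Its log2 fold change ranged from -0.92 without control replicate 1 to -0.61 with total count scaling, and it stayed called throughout.

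SPINK1, on chromosome 5 at 147824568 to 147831786, marks a subset of prostate cancers when it is strongly expressed. Here it was near the limit of detection, with 4 and 12 counts in control and 18 and 13 counts in resistant libraries. In CPM these were 0.168 and 0.428 against 0.373 and 0.314, so the resistant values lay between the control values. SPINK1 was not called (edgeR log2 fold change 0.16 ± 0.451, SE; adjusted p = 0.769). The summed counts gave a ratio of resistant to control of 1.12, with a 95% exact binomial interval of 0.595 to 2.2 that covers counting error only. A change within that interval could have been missed, and so could a larger one, as the interval leaves out differences between libraries.

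NPY, on chromosome 7 at 24284163 to 24291865, was listed at 0 in all 4 libraries. No other gene row of the count tables with a GENCODE 29 position overlaps it. A count of 0 allows up to 3 counts, or 0.126 and 0.107 CPM in control replicates 1 and 2 and 0.0622 and 0.0724 CPM in resistant replicates 1 and 2. XBP1, a transcription factor that most secretory cells make, was also listed at 0 in all 4 tables, and was noted after its values were seen. Whether a row of 0 reflects the cells or the counting was not tested for either gene. The same holds for the other genes listed at 0 here, COL1A2, CD3E, KRT5, KRT13, SCGB1A1 and CRISP1.

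Levels were compared between genes per exonic length, as CPM per kilobase of exons in GENCODE 29. The length joins the exons of all transcripts of a gene, 6013 bases for SPON2 and 2699 for AZGP1, whichever transcripts the cells made. In control libraries the order was AZGP1 (54.7 and 54.8), SPON2 (29.8 and 32.6), ACP3 (11 and 10.3), MSMB (11.3 and 8.33), TFF3 (7.15 and 8.63), CRISP3 (2.13 and 2.40) and SPINK1 (0.113 and 0.289 CPM per kb). The ranges of ACP3 and MSMB overlapped, as did those of MSMB and TFF3. In resistant libraries the order was SPON2 (61.4 and 59), ACP3 (41.9 and 43.5), AZGP1 (9.21 and 9.58), TFF3 (4.69 and 4.42), MSMB (1.85 and 1.62), CRISP3 (0.775 and 0.773) and SPINK1 (0.252 and 0.212 CPM per kb). No neighbours in that order overlapped. Of the level summed over the 8 genes per length, AZGP1 took 47.1% and 46.7% in control and 7.67% and 8.05% in resistant libraries. ACP3 went from 9.48% and 8.81% to 34.9% and 36.5%, and SPON2 from 25.7% and 27.8% to 51.1% and 49.5%. Per length, ACP3 and SPON2 thus made up most of the summed level in resistant cells, where AZGP1 had been the largest part in control cells. The control order depends on the length: in plain CPM SPON2 stood above AZGP1 there, at 179 and 196 against 148 CPM in both libraries.

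**Figure D2:**
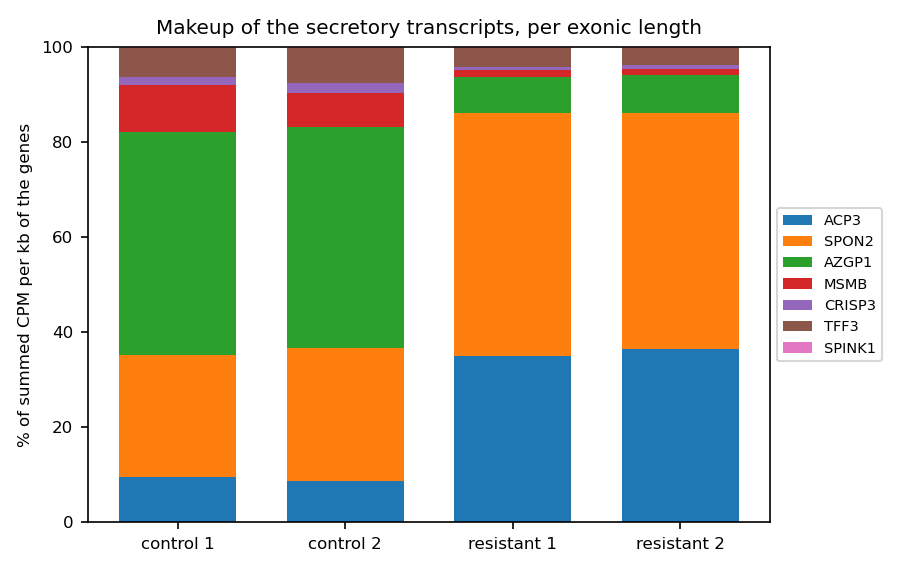
Share of each gene (vertical axis, percent) in the CPM per kb summed over the secretory genes, 1 bar per library, with NPY left out at 0. AZGP1 is the largest part of both control bars, at 47.1% and 46.7%, and SPON2 of both resistant bars, at 51.1% and 49.5%.

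Short genes were lower in resistant libraries across the whole table, and several secretory genes are short. Among tested protein-coding genes of under 1 kb of exons, where MSMB falls with 492 bases, the median log2 fold change was -0.53 over 195 genes. It was -0.20 over 1039 genes of 1 to 2 kb (TFF3 and SPINK1), -0.04 over 1789 genes of 2 to 3 kb (AZGP1 and CRISP3), 0.038 over 3873 genes of 3 to 5 kb (ACP3) and 0.18 over 7046 genes of 5 kb or more (SPON2). Of the genes of under 1 kb, 52.8% were called lower and 13.8% higher. With the correction for length and GC content their median was still -0.26. The medians of the longer groups were then -0.051, -0.0018, -0.0057 and -0.0048, so the correction did not fully level the genes of MSMB's length. ACP3 and AZGP1 hardly moved with the correction, from 2.00 to 2.06 and from -2.54 to -2.52 on the log2 scale. MSMB, CRISP3 and SPON2 moved toward 0, and TFF3 moved from -0.80 to -0.71. SPINK1 moved from 0.16 to 0.65 and stayed uncalled. The part of RNA quality or library makeup in these differences was not tested.

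**Figure D3:**
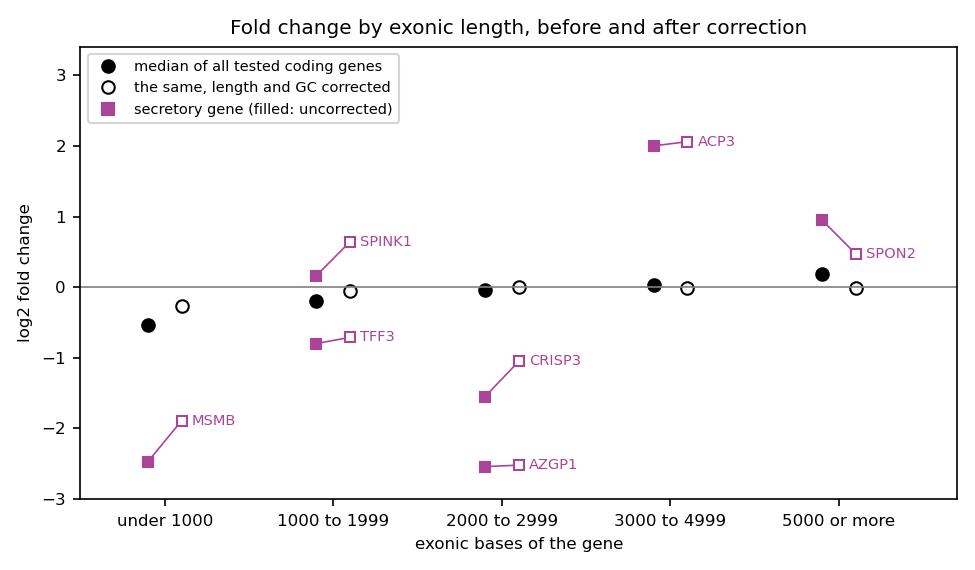
Log2 fold change of resistant against control (vertical axis) by exonic length (horizontal axis), with circles for the median of all tested protein-coding genes and squares for the secretory genes, filled before and open after the length and GC correction. The circles climb from -0.53 for the shortest to 0.18 for the longest genes before the correction, and ACP3 and AZGP1 keep their values with it.

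The direction of all 6 calls held in each of the 11 other settings tried. Across them the log2 fold change of AZGP1 lay between -2.59 and -2.35, that of MSMB between -2.68 and -1.89, that of CRISP3 between -1.62 and -1.05 and that of SPON2 between 0.47 and 1.14. The largest adjusted p over the settings, by edgeR or DESeq2, was 2.48e-10 for ACP3, 4.28e-11 for AZGP1, 1.79e-06 for MSMB, 1.31e-05 for CRISP3, 0.000572 for TFF3 and 3.84e-08 for SPON2. SPINK1 ranged from -0.30 to 1.04, according to which control library was left out.

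**Figure D4:**
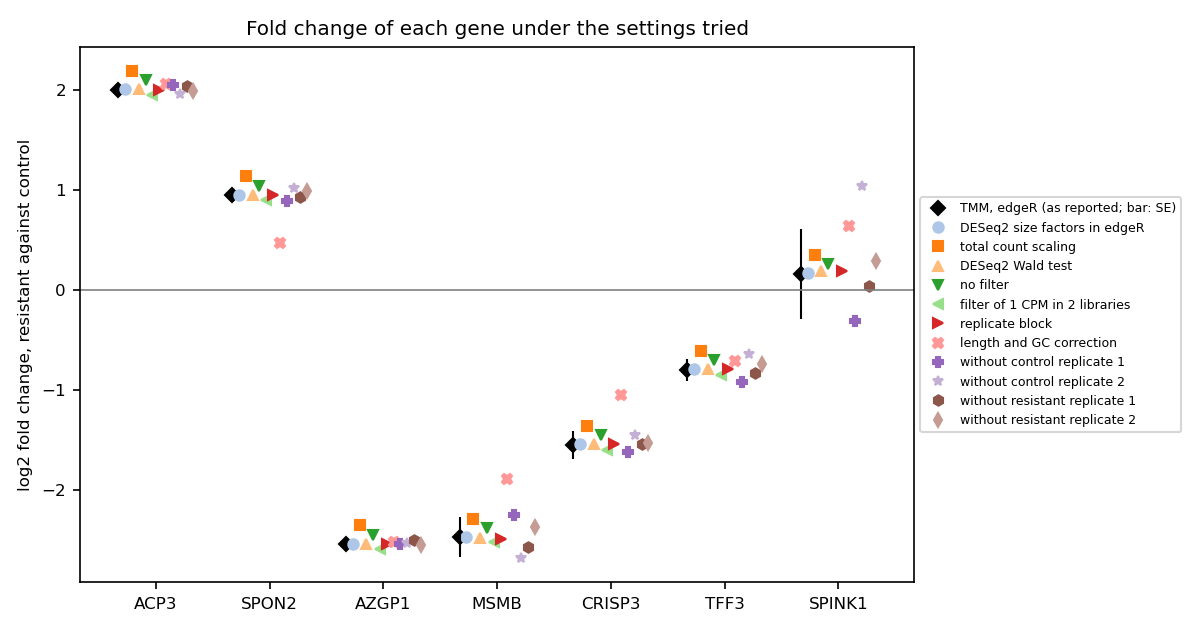
Log2 fold change of resistant against control (vertical axis) of the 7 tested genes, with a black diamond and SE bar for the reported fit and 1 marker for each other setting. The markers of the 6 called genes stay on 1 side of 0, those of SPON2 drop to 0.47 with the length and GC correction, and those of SPINK1 lie on both sides of 0.

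Relatives of the secretory genes moved both ways. Of 37 family relatives, 30 had a count and 17 passed the filter, of which 7 were higher and 3 lower (median log2 fold change 0.12, against -0.016 over all tested genes). The length and GC correction gave 6 higher and 5 lower calls. Without it, 33% of all tested genes were called higher and 31.7% lower. Among acid phosphatases, ACP1, the cytosolic enzyme, fell from 112 ± 3.98 to 71.5 ± 1.82 CPM (SD, n = 2; edgeR adjusted p = 1.53e-07). The lysosomal ACP2 was called higher by 0.13 on the log2 scale (edgeR adjusted p = 0.0388), but was not called with DESeq2, nor once length and GC content were corrected for, where it stood at -0.04. ACP4, ACP5 and ACP6 were not called, at log2 fold changes of -0.29, -0.14 and -0.08 (edgeR adjusted p = 0.11, 0.738 and 0.241), although ACP4 and ACP6 were called lower with the length and GC correction. ACP3 therefore differed in direction from ACP1, while the other 4 acid phosphatases lay between -0.29 and 0.13. These genes were listed by name, and their likeness in sequence to ACP3 was not looked at.

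The trefoil factors TFF1, TFF2 and TFF3 lie side by side on chromosome 21. TFF2 had 1.18 and 1.604 CPM in control and 2.53 and 3.04 CPM in resistant libraries, and rose by 0.98 ± 0.2 (SE) on the log2 scale (edgeR adjusted p = 0.00106). TFF1 had 1.55 and 1.78 CPM in control and 2.30 and 1.83 CPM in resistant libraries and was not called (log2 fold change 0.31, edgeR adjusted p = 0.179), although it was called higher under total count scaling and once length and GC content were corrected for. TFF3 was thus called lower while TFF2 was called higher. CRISP2 had 1 count in all, and CRISP1 none, so CRISP3 was the only CRISP gene that passed the filter. MR1 and FCGRT, which share the MHC class I-like fold with AZGP1 and serve antigen display and antibody transport, rose 2.87-fold and 4.52-fold (edgeR adjusted p = 5.99e-09 and 8.15e-08), where AZGP1 fell. RSPO2, an R-spondin that boosts Wnt signalling and shares a domain type with SPON2, had 61 and 65 counts in control and 4 and 4 in resistant libraries (log2 fold change -4.71, SE 0.296, edgeR adjusted p = 5.64e-08).

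Of 28 receptors, enzymes and partners of the secretory proteins, 18 could be tested: 13 were called higher and 3 lower (median log2 fold change 0.52). Over all tested genes, 33% were called higher and 31.7% lower. DPP4, the surface peptidase that trims NPY, fell from 86.7 ± 3.08 to 20 ± 0.47 CPM (SD, n = 2; log2 fold change -2.12 ± 0.049, SE; edgeR adjusted p = 2.4e-11). NPY1R, a receptor for NPY, was called higher: it had 0.629 and 0.606 CPM in control and 1.02 and 1.18 CPM in resistant libraries (edgeR adjusted p = 0.0131). The call rests on 15 to 49 counts per library and was lost with DESeq2 (adjusted p = 0.147). NPY4R and NPY5R had at most 3 counts in a library, and NPY4R has a near-identical copy. PRSS1, a trypsin of the kind SPINK1 inhibits, had 11.2 and 12.2 CPM in control and 1.35 and 1.28 CPM in resistant libraries, 8.87-fold lower (edgeR adjusted p = 1.08e-09), with the limit that trypsin genes share near-identical sequence. ERBB2, a receptor tyrosine kinase that prostatic acid phosphatase can dephosphorylate, rose 2.44-fold (edgeR adjusted p = 1.45e-10), and its log2 fold change of 1.29 was 0.76 with the length and GC correction. ITGAM and ITGB2, which form an integrin that binds mindin, were singled out after their values were seen. ITGAM went from 9 and 7 counts in control to 163 and 126 in resistant libraries and ITGB2 rose 2.39-fold (edgeR adjusted p = 2.53e-07 and 2.84e-05). ITGAM is also a leukocyte marker, and the pan-leukocyte marker PTPRC had at most 0.107 CPM in any library.

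Other genes of prostatic or seminal secretion were split. Of 30, 17 could be tested: 6 were called higher and 8 lower (median log2 fold change 0.03). Under total count scaling the calls were 8 higher and 6 lower. With TMM scaling, 33% of all tested genes were called higher and 31.7% lower. KLK3, prostate-specific antigen, had 663 and 692 CPM in control and 487 and 477 CPM in resistant libraries, and KLK4 had 23 and 19.2 against 37.1 and 39 CPM. KLK3 was called lower and KLK4 higher (edgeR adjusted p = 1.86e-07 and 1.33e-06). KLK2, a related kallikrein close to KLK3 in sequence, was called lower by a small amount (log2 fold change -0.13; edgeR adjusted p = 0.0181). Under total count scaling KLK2 stood at 0.06 and was not called. SLPI, a protease inhibitor of mucosal fluids, had 77.6 and 83.3 CPM in control and 552 and 537 CPM in resistant libraries (log2 fold change 2.76 ± 0.044, SE; edgeR adjusted p = 2.67e-12). LCN2, an iron-scavenging lipocalin, rose 10.5-fold, from 4.97 ± 0.627 to 52.7 ± 1.26 CPM (SD, n = 2; edgeR adjusted p = 2.47e-11). AGR2, a folding enzyme of mucus-secreting cells, fell from 18.7 ± 0.629 to 6.04 ± 0.361 CPM (SD, n = 2; edgeR adjusted p = 4.14e-09). LCN2 is also on the club and hillock list, whose summed level went from 27.5 and 28.9 CPM to 732 and 741 CPM. Of that list's 8 markers 4 passed the filter, with 2 called higher and 1 lower, where 64.7% of all tested genes were called. PIGR had most of the summed level, and SCGB1A1 and KRT13 were at 0 in all libraries. The part of such cells or states in these values was not tested.

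The machinery that brings secreted proteins into the endoplasmic reticulum and onward was more often lower than higher. Of 46 genes 44 could be tested: 26 were called lower and 9 higher (median log2 fold change -0.17). Under total count scaling the calls were 17 lower and 16 higher (median 0.013), so the split moved with the scale. With TMM scaling, 31.7% of all tested genes were called lower and 33% higher. SSR3, a subunit of the complex beside the translocation channel, fell from 635 ± 3.97 to 275 ± 3.58 CPM (SD, n = 2; log2 fold change -1.21 ± 0.034, SE; edgeR adjusted p = 9.41e-11). SEC11C, which cleaves signal peptides, fell 2.54-fold, and SEC61G, a small subunit of the channel, fell 2.86-fold (edgeR adjusted p = 1.13e-10 and 9.42e-10). With the length and GC correction their log2 fold changes were -1.02, -1.30 and -1.02. SPDEF, a factor of secretory epithelial cells on the same list, was looked at after its values were seen and rose from 40.3 ± 3.4 to 66.6 ± 0.983 CPM (SD, n = 2; edgeR adjusted p = 2.88e-07).

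**Figure D5:**
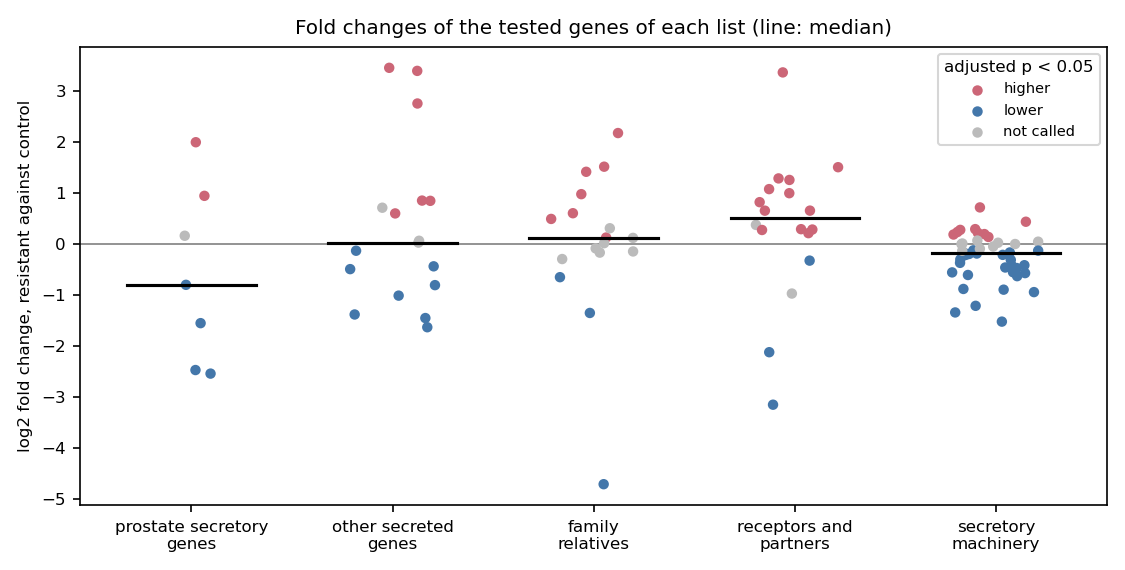
Log2 fold change of resistant against control (vertical axis) for each tested gene of 5 lists, 1 point per gene, in red where called higher, blue where called lower and grey where not called, with a line at the median. The secretory genes lie between -2.54 and 2.00, and the points of the secretory machinery lie closer to 0, between -1.52 and 0.72.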

How the data were processed

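The deposited values are raw counts of reads per gene, 1 table for each of the 4 libraries, that the authors made with STAR 2.5.2b on GRCh38 (hg38) and HTSeq, as the submitters' processing notes list them. No HTSeq version, mode, strand setting or annotation release is given in the sources used here. The 5 rows of each table that name no gene (55.41% to 74.4% of HTSeq records) stayed out of library sizes and tests. Identifiers were matched without version to GENCODE 29 and a symbol table (56753 of 60483 matched GENCODE 29).

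The whole table was fitted with group as the only term: filterByExpr (minimum count 10), TMM scaling, edgeR 4.0.16 (R 4.3.3) with its quasi-likelihood F test, and Benjamini-Hochberg adjustment over 20325 genes. The SE is the size of the log2 fold change over the square root of F. The fit had 2 residual degrees of freedom. Replicates differed by more than sampling noise (chi-square per degree of freedom 5.67 in the control and 2.38 in the resistant pair). No label ties them to separate cultures: the spread that the p-values rest on is that between these libraries, and it may be technical. edgeR draws the spread of each gene toward a trend over all genes. The p-values therefore do not rest on a gene's own replicates alone. Intervals and floors of 3 counts cover counting error only. The length and GC correction used smooth fits per library (mgcv 1.9.3) as offsets, and DESeq2 1.42.0 was another test.

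The genes, the lists and the design were chosen with earlier results of these data known. Named were the 8 genes; from each list the 3 called genes with the smallest adjusted p; trefoil factors, CRISP genes, NPY receptors and acid phosphatases with a count; KLK2, KLK3 and KLK4; nearest coding neighbours; markers that depart from the cell type; and the 2 coding genes nearest in log2 CPM (prior count 2) over the 4 libraries.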

Additional observations from a re-analysis of the deposited data

How the results depend on the processing

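The 6 calls among the secretory genes, 2 higher and 4 lower, kept their direction and stayed called in all 11 alternatives: other size factors, total count scaling, DESeq2, no filter, a filter of 1 CPM in 2 libraries, the replicate block, the length and GC correction, and each library left out. SPINK1, never called, turned to -0.30 (edgeR adjusted p = 0.655) without control replicate 1 and was 1.04 without control replicate 2. Its adjusted p ranged from 0.221 to 0.965 over its alternatives, and it did not pass the 1 CPM filter. With NPY at 0 no setting gave a value. Of the list counts, 3 moved by more than 1.5 times: family relatives called lower went from 3 to 5 with the length and GC correction, and secretory machinery genes went from 9 to 16 higher and from 26 to 17 lower with total count scaling. The cause was not tested. Under total count scaling the median over all genes lay 0.188 higher (log2), and 64.4% of called genes were then higher, against 51%. Same-numbered libraries did not deviate together (r = -0.023 across genes, which are not independent), and with the replicate block 2 secretory genes were higher and 4 lower as before. A fit without a library leaves 1 sample in a group, assumed to vary like the other group. Depth limits SPINK1 and MSMB, with 4 to 18 and 33 to 132 counts per library.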

Other observations

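The coding genes next to the secretory genes went different ways. CPNE4, a calcium-binding copine 31956 bases before ACP3, had 0.21 and 0.285 CPM in control and 5.27 and 5.64 CPM in resistant libraries (log2 fold change 4.42 ± 0.223, SE; edgeR adjusted p = 8.46e-09). DNAJC13, an endosomal chaperone on the other side of ACP3, rose by 0.84 on the log2 scale (edgeR adjusted p = 9.03e-09). ACP3 and both its neighbours were thus called higher, as were 33% of all tested genes. AZGP1 lay between GJC3, a gap junction gene that fell with a log2 fold change of -1.32, and ZKSCAN1, a zinc finger gene that rose by 0.86 (edgeR adjusted p = 0.00109 and 4.3e-09). NCOA4, a ferritin receptor 2592 bases from MSMB, was not called (log2 fold change -0.0041, edgeR adjusted p = 0.932). NCOA4 was called higher under total count scaling (0.18, edgeR adjusted p = 0.000574) and once length and GC content were corrected for (0.087, edgeR adjusted p = 0.00881). ANTXRL, 240075 bases away on the other side of MSMB, was lower (log2 fold change -0.75, edgeR adjusted p = 0.00738, and 0.05 with DESeq2). TFF3 lay between ABCG1, a sterol exporter, and TFF2, which rose by 1.26 and 0.98 on the log2 scale (edgeR adjusted p = 6.32e-09 and 0.00106), while TFF3 itself fell. CTBP1, a corepressor 2485 bases from SPON2, was called higher by 0.42 on the log2 scale (edgeR adjusted p = 1.17e-05) and called lower, at -0.095, once length and GC content were corrected for (edgeR adjusted p = 0.0246). PALS2, 281402 bases from NPY, fell by 0.68 on the log2 scale (edgeR adjusted p = 1.47e-06). STK31, 451649 bases away on the other side of NPY, did not pass the filter. RNF212 beside SPON2, both neighbours of SPINK1 (JAKMIP2 and SCGB3A2) and both neighbours of CRISP3 (CRISP2 and PGK2) did not pass either.

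The coding genes whose levels lay nearest over the 4 libraries, by distance in log2 CPM, were BIRC3 and NLGN1 for ACP3 (0.278 and 0.293), CIRBP and SQSTM1 for SPON2 (0.13 and 0.168) and CDKN3 and RBIS for AZGP1 (0.206 and 0.321). For MSMB they were GCG and C6orf52 (0.355 and 0.599), for CRISP3 TAFA4 and GAS2 (0.204 and 0.474), for TFF3 NUDT6 and ZNF684 (0.0817 and 0.165) and for SPINK1 ALOX5 and SLC6A17 (0.256 and 0.275).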
